A study of Mus musculus with 31 samples.

Results

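Hpf1 and 9 genes that work with it in poly(ADP-ribose) signalling and base excision repair were followed across single 2-cell mouse embryos. These 10 of the 20544 gene symbols in the count table were Hpf1, Parp1, Parp2, Parg, Xrcc1, Apex1, Ogg1, Polb, Lig3 and Ung. Hpf1 was selected on its measured level, as it was among the genes lowest in SER-generated embryos, so its difference between the groups is given as a description with no test. The other 9 genes were chosen as its partners with earlier results of these embryos known.

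The libraries came from 16 control- and 15 SER-generated embryos, collected 32 h after insemination. SER stands for sperm energy restriction and recovery, in which one cauda epididymis of a C57BL/6J male was placed in medium without glucose and pyruvate (IVF-TYH -/-) until the sperm lost motility, which took 15 to 45 min, and the sperm were then returned to complete medium (IVF-TYH +/+). The other cauda was kept in complete medium and served as control. The males were 12 to 14 weeks old, and the eggs of both groups came from superovulated CD1 females of 8 to 10 weeks, were cocultured with sperm for 4 h and were then cultured in KSOM. No group carried a mutation or transgene, and the treatment touched the sperm and not the embryo. Each embryo was a Smart-seq3 library of its own, amplified with 19 cycles of PCR. The paper reports that the embryos came from a few independent batches. The labels do not give the male, the dish or the batch of an embryo, so the tests treat embryos of the same batch as independent. The p-values thus measure the spread between these embryos, part of which may be technical.

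PARP1 and PARP2 are enzymes that recognise broken DNA and attach ADP-ribose to proteins near the break. HPF1 completes their active site and directs the ADP-ribose to serine residues, and PARG takes the chains apart again. In base excision repair a glycosylase such as OGG1 or UNG removes a damaged base, APEX1 cuts the strand at the site left bare, and POLB and LIG3 fill and seal the gap on the scaffold protein XRCC1. The pathway is known in the early embryo for its work on the paternal genome, which is demethylated and repaired after fertilisation. A 2-cell embryo still holds mRNA laid down in the oocyte while its own genome is being switched on.

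Positions are given on the GRCm38 build from GENCODE vM21, and counts covered the exons of each gene. Hpf1 lay at chr8:60890418-60908671 on the plus strand with 4612 exon bases and shared no exon base with another gene. Parp1 lay at chr1:180568924-180601254, Parp2 at chr14:50807841-50821301 and Parg at chr14:32201949-32297550, all on the plus strand. Xrcc1 was at chr7:24546289-24573440, Apex1 at chr14:50924968-50927139, Ogg1 at chr6:113326972-113335068, Lig3 at chr11:82781108-82804274 and Ung at chr5:114130386-114139323, on the plus strand as well. Polb lay on the minus strand at chr8:22628126-22653435. The strand setting of the counting is not given in the sources used here, so reads from overlapping genes cannot be told apart. This touched Apex1, which shared 877 exon bases with Pip4p1, Lig3, which shared 1826 with Rffl, and Ogg1, which shared 232 with Camk1, each on the opposite strand. For Polb and Parp1 the overlaps were 45 bases with Gm26909 and 7 bases with Mir6904.

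RefSeq promoters on GRCm38.p6 were matched by symbol for 9 of the 10 genes, the exception being Polb. Those of Hpf1 and Parp1 are shown because these genes moved in opposite directions with the oocyte transcripts across embryos, as described further on. Each line holds the 250 bases before the RefSeq start, 5′ to 3′ along the gene's strand. Capitals mark 3 promoter motifs, searched on both strands, which do not overlap here. The GC box was searched as GGGCGG. The E-box was searched as CACGTG. The CCAAT box was searched by the letters of its name. The windows are chr8:60890178-60890427 for Hpf1, which ends just inside the GENCODE start, and chr1:180568641-180568890 for Parp1.
Hpf1: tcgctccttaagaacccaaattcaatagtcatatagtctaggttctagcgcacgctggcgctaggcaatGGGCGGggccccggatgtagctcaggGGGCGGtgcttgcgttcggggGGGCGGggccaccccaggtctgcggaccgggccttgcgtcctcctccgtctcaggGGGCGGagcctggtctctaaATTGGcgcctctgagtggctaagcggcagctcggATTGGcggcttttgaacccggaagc
Parp1: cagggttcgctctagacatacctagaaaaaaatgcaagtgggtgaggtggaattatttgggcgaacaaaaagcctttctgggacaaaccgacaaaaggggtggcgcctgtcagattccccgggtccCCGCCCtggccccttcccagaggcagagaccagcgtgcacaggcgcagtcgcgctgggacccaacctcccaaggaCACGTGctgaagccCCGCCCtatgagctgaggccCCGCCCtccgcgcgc

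The Hpf1 window held 4 GC boxes and 2 CCAAT boxes among 20 CpG dinucleotides. That of Parp1 held 3 GC boxes, 1 E-box and 16 CpGs. Among all 32851 RefSeq promoters of this length the median was 6 CpGs, 32.7% held a GC box, 33.8% a CCAAT box, 12.4% a TATA box and 6.02% an E-box. A TATA box, searched as TATAAA, was found in neither window. A match describes the letters in the window and not a bound site.

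Total counts ranged from 532945 to 2085222 in control-generated embryos (median 955806.5) and from 642321 to 3088396 in SER-generated embryos (median 1375557), so the SER group had the larger totals. These are counts after the removal of duplicates, and the number of reads sequenced is not given in the sources used here. Oocyte transcripts were found for 19 of 20 listed genes and transcripts of early zygotic activation for 25 of 26, and only Oog1 and Tdpoz5 of these lists were at 0 in every embryo. Of 16 cumulus and granulosa cell markers none was found in every embryo, and their summed level had a median of 27.3 CPM (counts scaled to a library total of 1000000) in control embryos and 11.3 CPM in SER embryos, with a highest value of 1612 CPM in control replicate 5. Cyp11a1 reached the highest level of any of these markers in a single embryo. The 10 sperm and testis transcripts summed to medians of 14.0 and 15.6 CPM. Control replicate 4 and SER replicate 15 stood apart, with zygotic scores of 2.04 and 2.65 where the lowest other embryo had 4.40. The zygotic and maternal scores are the mean log2 CPM of the tested genes of these lists. Each library pooled the cells of 1 embryo, so fewer cells of a type and less RNA per cell cannot be told apart.

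Hpf1 was by far the most abundant of the 10 transcripts. Per kilobase of exon its median over 31 embryos was 224 CPM, above 99.4% of the 17701 detected genes with a known length, and 3.47 times that of Apex1, the next in order at 64.7. Hpf1 exceeded Apex1 in 31 of 31 embryos. The place of Apex1 is uncertain, since 877 of its 1422 exon bases overlap Pip4p1 on the opposite strand. In CPM without length its medians, 93.7 in control and 84.4 in SER embryos, were below the 176 and 173 of Ung. The counts also merge 5′ and internal reads, so scaling by exon length is approximate. Ung followed at 32.1 CPM per kilobase, Parp2 at 25.3 and Parp1 at 17.02. Lower still were Ogg1 at 11.6, Parg at 11.01, Polb at 8.34, Xrcc1 at 4.53 and Lig3 at 3.40 CPM per kilobase, the last still above 60.4% of the detected genes.

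Neighbours in this order overlapped widely below Hpf1. Apex1 exceeded Ung in 26 of 31 embryos, Ung exceeded Parp2 in 21, and Parp2 exceeded Parp1 in 21. Ogg1 exceeded Parg in only 13 embryos although its median was higher, so their order was not fixed. The transcript of the cofactor was thus present at many times that of the enzymes it joins. The ratio of Hpf1 to Parp1, both per kilobase, had a median of 20.2 in control-generated embryos (7.16 to 184) and 10.5 in SER-generated embryos (2.78 to 43.5). For Parp2 the medians of this ratio were 16.4 (3.28 to 340) and 5.88 (2.99 to 83.7). These ratios contain the Hpf1 difference on which the gene was chosen.

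**Figure D1:**
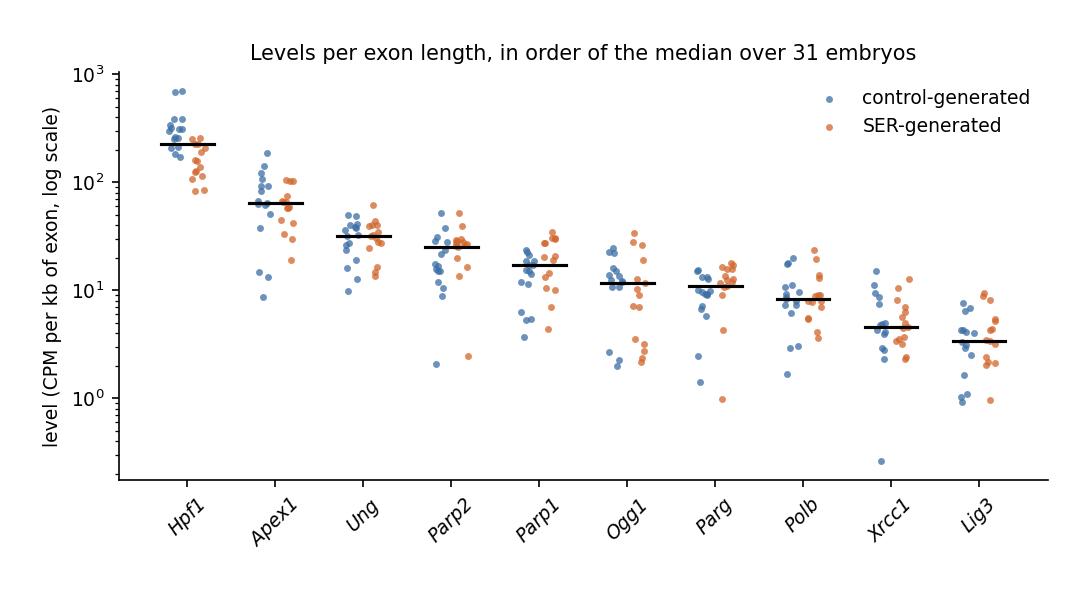
Level of the 10 genes in CPM per kilobase of exon on a log axis, ordered by the median over 31 embryos (black lines), with 1 point for each control-generated (blue) or SER-generated (orange) embryo. Hpf1 lies above every other gene with a median of 224, Lig3 is lowest at 3.40, and the 3 values of 0 (Xrcc1, Ogg1 and Lig3 in control replicate 3) cannot be drawn on this axis.

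The level of Hpf1, in CPM of the whole library, ran from 784 to 3258 with a median of 1408 in control-generated embryos. In SER-generated embryos it ran from 384 to 1181 with a median of 732. All 16 control values lay above the SER median and all 15 SER values below the control median, while the ranges overlapped: 11 control embryos were above the highest SER value and 9 SER embryos below the lowest control value. The mean was 1521 ± 719 CPM (SD, n = 16) in control- and 755 ± 272 CPM (SD, n = 15) in SER-generated embryos. Hpf1 was counted at least 399 times in each library, so counting error was small beside the spread between embryos. The fitted difference was a log2 fold change of -1.08 ± 0.24 (SE), which placed it 116th of 8571 when genes were ordered from the lowest log2 fold change. Leaving out each embryo in turn moved it between -1.13 and -0.94.

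**Figure D2:**
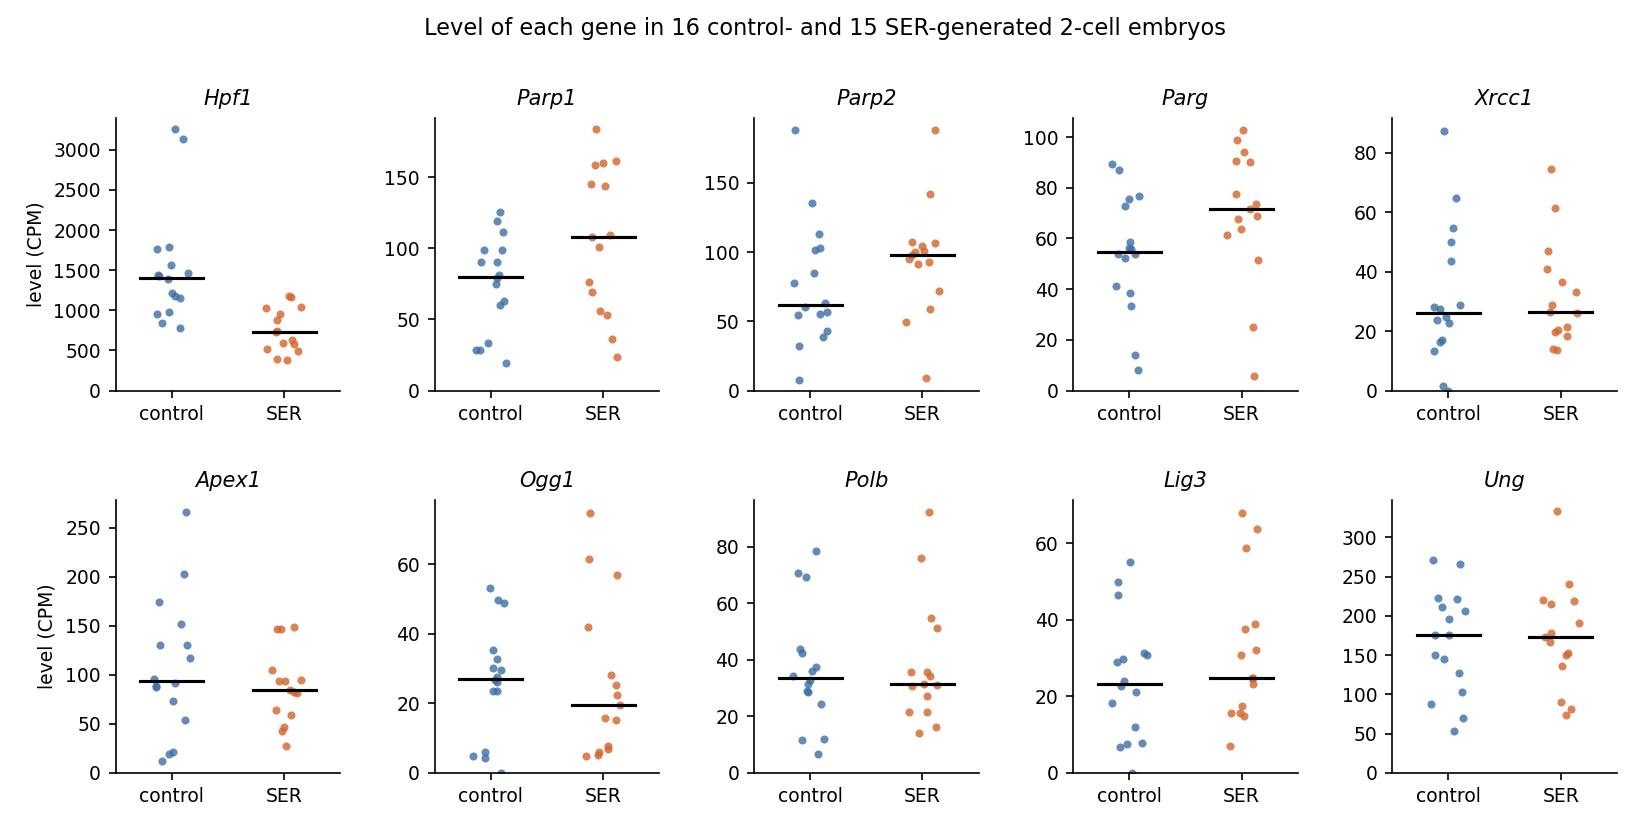
Level of each gene in CPM, on an axis of its own that starts at 0, with 1 point per embryo for 16 control- (blue) and 15 SER-generated (orange) embryos and a black line at the median. Hpf1 has medians of 1408 and 732 CPM, while the points of the other 9 genes overlap over most of their range.

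The differences of the other 9 genes were tested in the fit across all genes, with edgeR's quasi-likelihood test and Benjamini-Hochberg adjustment. None of the 9 was called at an adjusted p under 0.1, among 8571 tested genes of which 0% were called. Without adjustment 491 genes, or 5.73%, had p under 0.05, none of the 9 partners among them. All 10 genes passed the filter on low counts. The median gene of this fit stood at a log2 fold change of 0.02.

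Parp1 and Parp2, the partners of HPF1, had higher estimates in SER-generated embryos, within the spread between embryos. Parp1, the main sensor of single-strand breaks, ran from 19.5 to 126 CPM with a median of 80.2 in control- and from 23.4 to 184 CPM with a median of 108 in SER-generated embryos. The groups overlapped over most of that range, although 6 SER embryos lay above the highest control value. Its log2 fold change was 0.50 ± 0.27 (SE), with an adjusted p of 0.869 in edgeR's test and a 95% interval of -0.04 to 1.03. Parp2, the related enzyme that can partly stand in for Parp1, ran from 7.54 to 188 CPM (median 61.9) and from 8.96 to 188 CPM (median 98.0). The lowest Parp2 value of each group belonged to control replicate 4 and SER replicate 15, the embryos that stood apart. The log2 fold change of Parp2 was 0.27 ± 0.30 (SE), with an interval of -0.32 to 0.86.

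Parg, which degrades the polymer that PARP1 and PARP2 make, had a similar estimate. It ran from 8.17 to 89.5 CPM with a median of 54.8 in control- and from 5.65 to 103 CPM with a median of 71.8 in SER-generated embryos. In 12 of 15 SER embryos Parg was above the control median, and in 5 of 16 control embryos it was above the SER median. The log2 fold change was 0.33 ± 0.29 (SE), with an interval of -0.24 to 0.90 and an adjusted p of 0.936 in edgeR's test.

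The scaffold and the enzymes that fill and seal the gap differed little on average and varied greatly between embryos. Xrcc1 had medians of 26.2 CPM in control embryos and 26.4 CPM in SER embryos, ranging from 0 to 87.5 and from 13.6 to 74.5. Polb, the gap-filling polymerase, had medians of 33.5 and 31.3 CPM, with ranges of 6.53 to 78.5 and 14.3 to 92.3. Their log2 fold changes were 0.02 ± 0.39 and 0.00 ± 0.32 (SE). Intervals of -0.75 to 0.79 for Xrcc1 and -0.63 to 0.64 for Polb leave room for differences in either direction, and Polb was at 0.70 ± 0.63 with the replicate block and library total. Lig3, the ligase that binds XRCC1, had medians of 23.3 and 24.9 CPM and a log2 fold change of 0.37 ± 0.39 (SE), with an interval of -0.40 to 1.13. Control replicate 3 had no count of Xrcc1, Ogg1 or Lig3 among 1025339, which allows a level of up to 2.93 CPM, and it held 3214 counts of Hpf1, the highest number in any library.

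Of the enzymes that act on the damaged base, none separated the groups. Apex1, the endonuclease that cuts at the abasic site, ran from 12.2 to 266 CPM (median 93.7) in control- and from 27.3 to 149 CPM (median 84.4) in SER-generated embryos. Its log2 fold change was -0.33 ± 0.33 (SE), with an interval of -0.98 to 0.31. The value was -0.03 in limma voom and turned to 0.0052 with the exon length trend removed. The 4 highest and the 3 lowest values of Apex1 were all from control embryos, so the control group spanned the SER group. Ung, which removes uracil, was the steadiest of the 10 in control-generated embryos, with a coefficient of variation of 0.397, and had medians of 176 and 173 CPM. Its log2 fold change was 0.06 ± 0.23 (SE), with an interval of -0.39 to 0.51.

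Ogg1, which removes 8-oxoguanine, the main product of oxidation, was spread most widely in the SER group. It ran from 0 to 53.3 CPM with a median of 27.1 in control- and from 4.69 to 74.8 CPM with a median of 19.5 in SER-generated embryos. The 3 highest values were from SER embryos, and 10 of 15 SER embryos lay below the control median. The log2 fold change was -0.01 ± 0.46 (SE), with an interval of -0.91 to 0.90, while limma voom gave -0.71 ± 0.37 with an adjusted p of 0.245. Its coefficient of variation was 0.619 in control- and 0.864 in SER-generated embryos, a difference that was not tested.

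The share of genes called depended on the test. It was 2.83% of 17803 genes without the filter on low counts, 0.605% of 7436 with DESeq2, 0.28% of 8571 with 3 estimated clusters of embryos as a term and 9.89% with limma voom and sample quality weights. None of the 9 partners was called in the first 3 of these fits, and Parp2 alone of the 9 was called in limma voom. The log2 fold change of Parp2 in that fit was 0.66 ± 0.21 (SE, with an adjusted p of 0.0677), against 0.27 in edgeR, and over its alternatives the adjusted p of Parp2 ran from 0.0677 to 0.999.

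Of 74 other genes of PARP signalling and base excision repair, 50 passed the filter and none was called by edgeR's test. Of these 50, 24 had higher and 26 lower estimates in SER-generated embryos. Their median was -0.04 on the log2 scale, against 0.02 for every gene tested. Of the other PARP enzymes and tankyrases 8 of 13 passed, 3 with higher and 5 with lower estimates and a median log2 fold change of -0.15. The 2 with the smallest p were Parp12, a PARP of RNA and stress responses, at -0.23 ± 0.23 (SE), and Parp10 at -0.52 ± 0.66. Parp12 was abundant, with medians of 1085 CPM in control embryos and 837 CPM in SER embryos, against 8.31 and 13.9 CPM for Parp10, whose medians thus ran against its fitted direction.

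Of the genes for erasers and readers of ADP-ribose and for NAD supply, 11 of 19 passed, 7 of them with higher estimates. Nadk, which makes NADP from NAD, had a log2 fold change of 0.44 ± 0.25 (SE), and Aplf, a reader of poly(ADP-ribose) in break repair, had -0.69 ± 0.65. Of the glycosylase genes and those that clear oxidised or uracil nucleotides 6 of 11 passed. Mutyh, which removes adenine opposite 8-oxoguanine, had a log2 fold change of 0.94 ± 0.57 (SE), and Dut, which hydrolyses dUTP, had -0.35 ± 0.29. Tdg was listed at 0 counts in every embryo. The authors kept only uniquely mapping 5′ reads, so this count need not mean that the transcript was absent, which was not tested. Nthl1, Neil1, Mpg and Nudt1 did not pass the filter.

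The factors of end processing and break repair had 8 of 11 genes passing, 7 with lower estimates and a median log2 fold change of -0.13. Apex2, the second AP endonuclease, was at -0.45 ± 0.31 (SE) and Polq, the polymerase of microhomology end joining, at 0.32 ± 0.37. Of the genes of long-patch synthesis and ligation 17 of 20 passed, 11 with higher estimates. The clamp loader subunits Rfc3, with medians of 7.60 CPM in control embryos and 15.99 CPM in SER embryos, and Rfc2, with 12.6 and 26.4 CPM, had log2 fold changes of 1.31 ± 0.51 and 0.98 ± 0.41 (SE). Their adjusted p-values in edgeR's test were 0.731 and 0.776. Of the 3 genes of this list with an unadjusted p under 0.05 in that test, the other, Rpa3, had the list's lowest estimate. It was at -1.08 ± 0.51 (SE, adjusted p = 0.844), although its medians were 17.5 CPM in control and 19.9 CPM in SER embryos. These 3 were the only ones of the 50 tested pathway genes with an unadjusted p under 0.05. Among all tested genes the share was 5.73%.

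**Figure D3:**
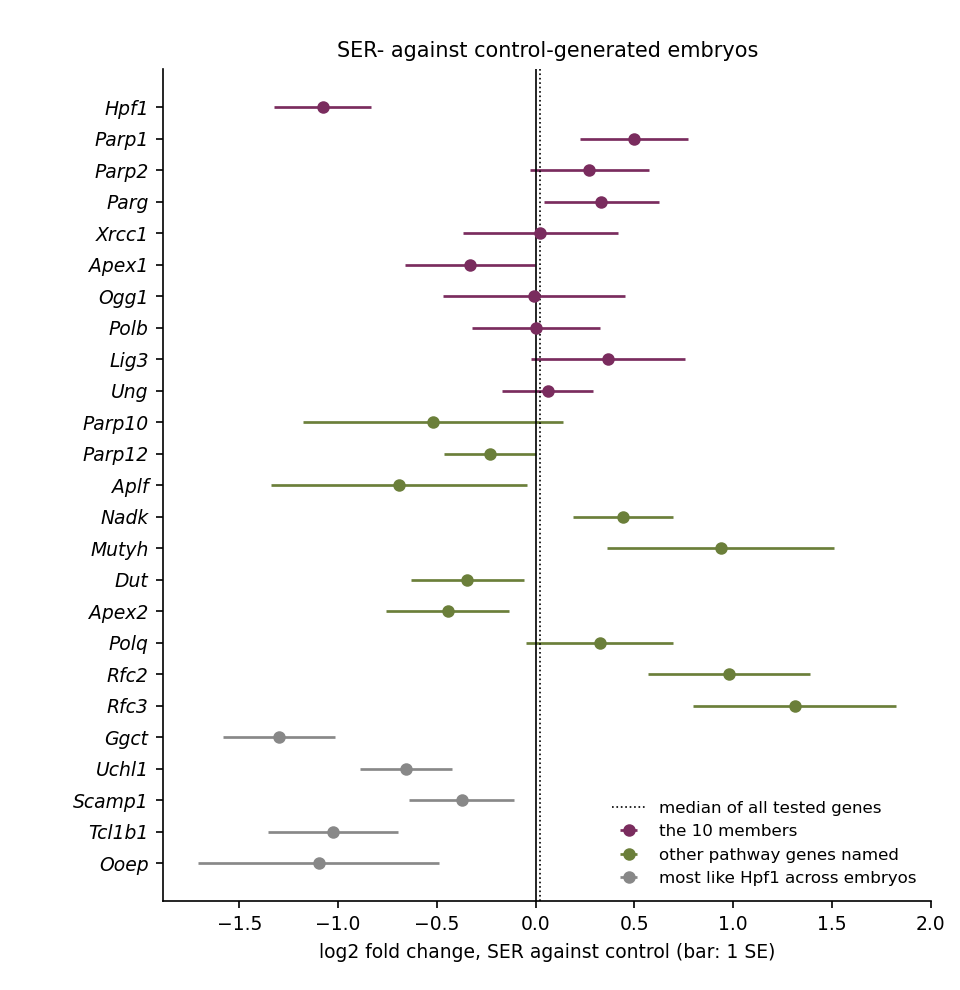
Log2 fold change of SER- against control-generated embryos from edgeR, with bars of 1 SE, for the 10 genes, the 10 genes named from the other pathway lists by smallest p and the 5 genes most like Hpf1 across embryos; the dotted line is the median of all tested genes at 0.02. Hpf1 lies at -1.08, the other 9 members between -0.33 and 0.50, and the 5 genes most like Hpf1 are all below 0.

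How each gene varied among embryos of the same group was examined next, since deviations from the group means do not use the contrast that chose Hpf1. Log2 CPM values (TMM scaling, prior count of 2) were centred on the mean of each group and correlated over 31 embryos, with 2-sided permutation tests of 100000 resamples within groups. Such values share the library, its scaling and the state of the embryo. Embryos of the same batch may also be alike. The resamples did not keep batches together, because the labels do not name them, and the part of batch in these relations was not tested. For that reason the main r values below are set beside the same r over all 8570 other tested genes.

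Hpf1 went with the oocyte transcripts. Its deviation correlated with the maternal score at r = 0.69 and rho = 0.59 (permutation p = 3e-05 and 0.00091, adjusted over 20 relations 0.00015 and 0.00303), above 97.9% of the other genes. Without the 2 embryos farthest from the median score r was 0.64. The relation with the zygotic score was weak over 31 embryos (r = -0.13) and had the opposite sign without control replicate 4 and SER replicate 15 (r = 0.43, adjusted p = 0.0501). Polb, the other member that rose with the maternal score, had r = 0.62 and rho = 0.61 (permutation p = 0.0002 and 0.00041, adjusted p = 0.0008 and 0.00235), and r fell to 0.42 (adjusted p = 0.0662) when the 3 estimated clusters were removed. Over all 31 embryos 96% of the other genes had a lower r with this score than Polb.

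Parp1 and Xrcc1 went the other way. For Parp1 and the maternal score r was -0.74 and rho -0.76 (permutation p = 1e-05, the smallest that these resamples give, and 2e-05), with adjusted p-values of 0.0001 and 0.0002. For Xrcc1 r was -0.69 and rho -0.69 (permutation p = 1e-05 and 2e-05), with the same adjusted values. Only 2.5% of the other genes had a lower r with the maternal score than Parp1, and 4.48% a lower r than Xrcc1. Without the 2 embryos farthest from the median score r was -0.67 and -0.68. Over all 36 alternatives, including the removal of each embryo, r stayed between -0.79 and -0.68 for Parp1, between -0.75 and -0.64 for Xrcc1 and between 0.61 and 0.76 for Hpf1, with adjusted p-values of at most 0.0037.

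The remaining relations followed the zygotic score. Parp2 rose with it at r = 0.84 and rho = 0.56 (permutation p = 2e-05 and 0.00159, adjusted p = 0.000133 and 0.00454). Control replicate 4 and SER replicate 15 carried part of this value, since without both r was 0.56, and with the 3 estimated clusters removed it was 0.38 (adjusted p = 0.0662). Apex1 rose with the zygotic score at r = 0.50 and rho = 0.60 (permutation p = 0.00651 and 0.00065, adjusted p = 0.0145 and 0.0026), and without the same 2 embryos at 0.61. Ogg1 fell as the score rose, with r = -0.59 and rho = -0.61 (permutation p = 0.00131 and 0.00047, adjusted p = 0.00437 and 0.00235), and -0.58 without them. Part of the Apex1 and Ogg1 counts may come from Pip4p1 and Camk1, whose exons overlap theirs. High and low Ogg1 values were found on both sides of the comparison, as the plot of single embryos shows. Of the other genes 97.8% had a lower r with the zygotic score than Parp2, 79.5% than Apex1 and 5.29% than Ogg1.

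In all 10 of 20 relations had an adjusted p under 0.05 for Pearson's r, and 7 of them also for Spearman's rho. The 3 that did not were Parp2 with the maternal score (r = -0.52, rho = -0.30), Polb with the zygotic score (r = -0.47, rho = -0.31) and Ung with the zygotic score (r = -0.54, rho = -0.34). The first of these was -0.09 and the second -0.15 without control replicate 4 and SER replicate 15, so both rested on those embryos. Ung instead fell with the maternal score once they were left out, at r = -0.70 (adjusted p = 0.0004), against -0.26 over all 31 embryos. Lig3 and Parg had no adjusted p under 0.05 with either score, with r between -0.31 and 0.05. Many other genes also followed these scores. Over the 8570 other genes the 5th and 95th percentiles of r were -0.681 and 0.593 with the maternal score. With the zygotic score they were -0.593 and 0.771. Parp2 with the maternal score, and Apex1, Ogg1, Polb and Ung with the zygotic score, lay within these limits. The share of all genes with such an adjusted p was not tested.

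**Figure D4:**
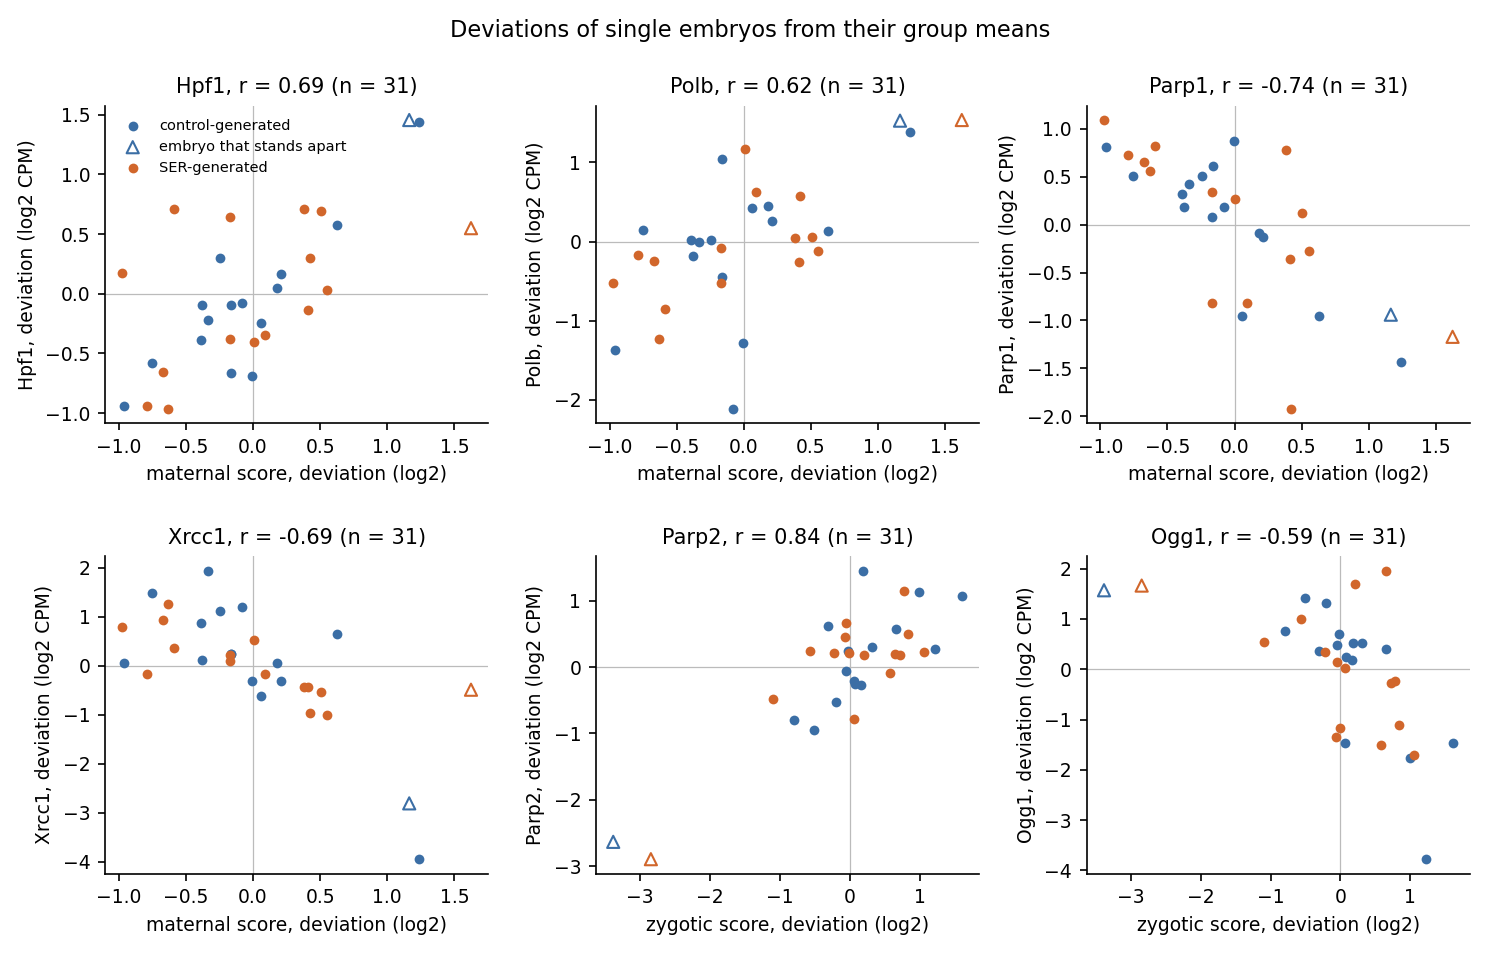
Deviation of each embryo from its group mean, with the maternal or zygotic score on the x axis (log2) and the gene on the y axis (log2 CPM), for 31 embryos in blue (control) and orange (SER); triangles are control replicate 4 and SER replicate 15. Hpf1 and Polb rise and Parp1 and Xrcc1 fall with the maternal score (r = 0.69, 0.62, -0.74 and -0.69), and Parp2 and Ogg1 move in opposite directions with the zygotic score (r = 0.84 and -0.59).

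Between Hpf1 and its partners the relations were weaker. Of 9 relations 1 had an adjusted p under 0.05, that with Xrcc1, at r = -0.60 (permutation p = 0.00119, adjusted p = 0.0107). Its rho was -0.40 (p = 0.028, adjusted p = 0.252). It rested on few embryos, since r was -0.27 without control replicates 3 and 4, the embryos with the highest Hpf1, and leaving out either one alone ended the call, with r = -0.48 (adjusted p = 0.103) without control replicate 3 and -0.51 (adjusted p = 0.0779) without control replicate 4. With Parp1 r was -0.43 and rho -0.34 (permutation p = 0.0152 and 0.0663, adjusted p = 0.0671 and 0.296), and with Polb r was 0.42 and rho 0.31 (permutation p = 0.0224 and 0.0988, adjusted p = 0.0671 and 0.296). With Parp2 r was -0.32, and it was 0.01 without control replicate 4 and SER replicate 15. Ogg1 and Ung, at r = -0.25 and -0.23 with Hpf1 over all 31 embryos, were called in 2 other settings. Without the same 2 embryos r was -0.461 and -0.468 (permutation test, adjusted p = 0.0438 for both). With the 3 estimated clusters removed it was -0.455 and -0.468 (adjusted p = 0.0345 for both). Of the other genes 1.58% had a lower r with Hpf1 than Xrcc1 and 9.07% a lower r than Parp1.

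Among the partners Parp1 and Xrcc1 varied together (r = 0.59) and both varied against Polb (r = -0.61 and -0.51). Xrcc1 and Lig3, whose proteins bind each other, had r = 0.47. Ogg1 and Ung, both glycosylases, had r = 0.45, and both were opposite to Parp2 at -0.43. These values come from the matrix of all pairs and carry no test.

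**Figure D5:**
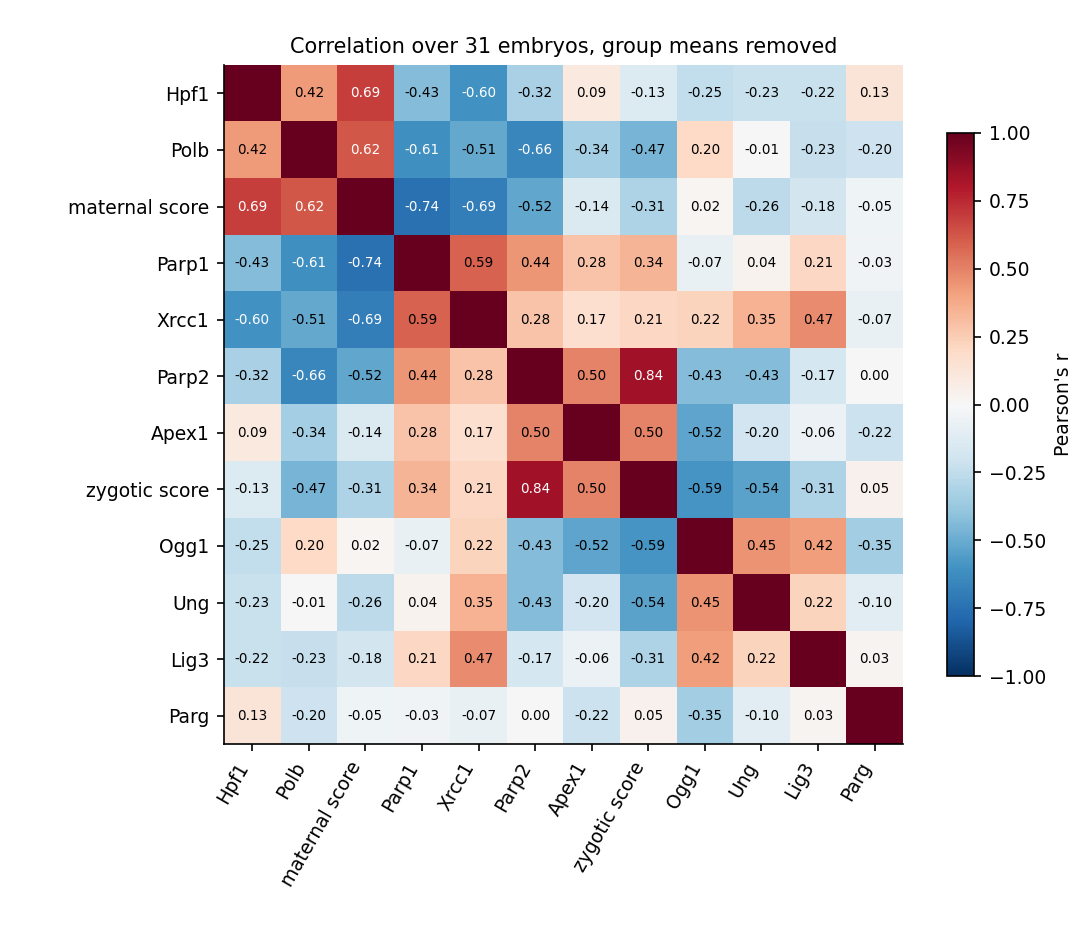
Pearson's r over 31 embryos between the 10 genes and the 2 scores after removing the group means, on a scale from -1 (blue) to 1 (red). Hpf1 and Polb share a block with the maternal score, Parp1 and Xrcc1 are opposite to it at -0.74 and -0.69, and Parp2 is closest to the zygotic score at 0.84.

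The 5 tested genes most like Hpf1 across embryos were Ggct (r = 0.83), Uchl1 (0.81), Scamp1 (0.78), Tcl1b1 (0.78) and Ooep (0.78), over 31 embryos with group means removed. The same 5 genes had r between 0.73 and 0.79 without control replicate 4 and SER replicate 15. Ooep, a protein of the subcortical maternal complex, is one of the 20 listed oocyte transcripts, and Uchl1 encodes a ubiquitin hydrolase. In the comparison of the groups, which did not choose these 5 genes, all had lower estimates in SER-generated embryos and none was called by edgeR's test. Ggct, a gamma-glutamylcyclotransferase of glutathione turnover, had medians of 948 CPM in control embryos and 476 CPM in SER embryos and its log2 fold change was -1.30 ± 0.28 (SE), with an adjusted p of 0.178. In the same test Ooep was at -1.10 ± 0.61 (adjusted p = 0.869) and Tcl1b1 at -1.03 ± 0.33 (adjusted p = 0.465). Uchl1 was at -0.65 ± 0.23 (adjusted p = 0.627) and Scamp1 at -0.38 ± 0.27 (adjusted p = 0.935). Since they vary with Hpf1 in single embryos, these values are not independent of the Hpf1 difference.

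The maternal score itself was 7.02 ± 0.60 (SD, n = 16) in control- and 6.65 ± 0.68 (SD, n = 15) in SER-generated embryos. With this score as a covariate the log2 fold change of Hpf1 was -0.70 ± 0.20 (SE) and that of Parp1 was 0.18 ± 0.22, against -1.08 and 0.50 without it. With the library total as a covariate the Hpf1 value was -0.91 ± 0.27, and without control replicate 4 and SER replicate 15 it was -0.99 ± 0.23. The score was brought in as a covariate only once the data were known, and the part of the maternal score in the Hpf1 difference cannot be told apart from that of the treatment.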

How the data were processed

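The deposited table holds raw counts, as whole numbers per gene symbol and embryo. The authors separated 5′ reads with a molecular identifier from internal reads, used STAR for alignment, UMI-tools and Picard against duplicates and featureCounts for counting, on mm10 per the labels. Versions, annotation and strand setting are not given in the sources used here. The authors corrected for batches that the labels do not name, so no batch term was used. No column was left out.

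SER- and control-generated embryos were compared with edgeR 4.0.16 (R 4.3.3): filterByExpr (minimum count 10, minimum total 15), TMM, the quasi-likelihood test, and adjusted p under 0.1. The SE is the log2 fold change over the square root of F. DESeq2 1.42.0 and limma 3.58.1 were alternatives. Lengths came from GENCODE vM21 for 20351 symbols. The fit was tested on simulated data. Depth was 532945 to 3088396 counts, and limits cover counting error only.

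The members and lists were chosen with earlier results of these data known. Named are the 10 members, the 5 genes most correlated with Hpf1, and the 2 genes with the smallest p in each pathway list. Rpa3 is added as the lowest estimate of its list. Same-numbered embryos were checked for pairing, and 4 of 15 were most like their own number. The main fit used no pairing.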

Additional observations from a re-analysis of the deposited data

How the results depend on the processing

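No gene was called by edgeR with DESeq2's size factors, the library total as a covariate, thinned counts, a replicate block, the maternal score as a covariate, the exon length trend removed, control replicate 4 and SER replicate 15 left out, or in any of 31 fits without 1 embryo. Calls appeared without the filter (504 genes, 1 of the 10 members), with DESeq2 (45, 1), with 3 estimated clusters (24, 1) and with limma voom (848, 2 members and 2 pathway genes, Parp12 and Rfc4). The members were Hpf1, on the contrast it was chosen by, and in limma voom also Parp2. Over 43 alternatives Hpf1, Parp1, Parp2, Parg and Lig3 kept the sign of the log2 fold change, Hpf1 between -1.13 and -0.62. No label links same-numbered embryos. The correlation of their deviations ran from -0.37 to 0.49 with a median of 0.11, and was over 0.1 in 8 of 15 pairs. Of 15 embryos 4 were most like their own number. Whether the numbers follow the batches was not tested. Fits with the replicate block gave 0 calls, and -0.62 for Hpf1 came from the block with the library total.

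Log2 fold changes of 5 members changed sign, none of them past the threshold. The values farthest from edgeR's were -0.71 for Ogg1 in limma voom and 0.70 for Polb with the replicate block and library total. For Polb the value was -0.012 with DESeq2's size factors, -0.0051 in DESeq2, -0.032 in limma voom, -0.030 with the clusters, -0.012 with the library total, -0.036 thinned, -0.029 without the 2 embryos apart and -0.040 without the length trend. Xrcc1 was at -0.0097 in limma voom, -0.024 with the library total, -0.24 with the block and library total, -0.047 without the 2 embryos, -0.26 with the maternal score and -0.042 without the length trend. Ogg1 was at 0.056 thinned, 0.10 with the replicate block, 0.27 with the block and library total, 0.064 with the maternal score and 0.022 without the length trend. Ung was at -0.12 in limma voom, -0.063 with the block and library total and -0.028 without the 2 embryos, and Apex1, at -0.33 in edgeR, was at 0.0052 without the length trend. Without 1 embryo each the ranges were -0.22 to 0.10 for Ogg1, -0.18 to 0.15 for Polb, -0.055 to 0.12 for Ung and -0.11 to 0.21 for Xrcc1.

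The relations of Hpf1 with an adjusted p under 0.05 numbered 2 on library totals, 0 thinned, 3 without the 2 embryos apart, 3 with the clusters removed and 0 to 3 without 1 embryo. Relations with the scores numbered 6 with the clusters removed, and 8 to 12 without 1 embryo. Signs changed for Hpf1 with Apex1 (-0.003 on library totals) and Parp2 (0.009 without the 2 embryos). For the maternal score they changed for Ogg1 (-0.056 with a prior count of 0.5, -0.23 without the 2 embryos, -0.40 with the clusters removed), Parg (0.11 and 0.12 in the last 2 settings), Parp2 (0.089, clusters) and Apex1 (0.15, clusters). For the zygotic score, without the 2 embryos and with the clusters removed in turn, Hpf1 was at 0.43 and 0.39, Parg at -0.20 and -0.28 and Xrcc1 at -0.23 and -0.23, and with the clusters removed Parp1 was at -0.14 and Polb at 0.11. Without 1 embryo each, r ranged from -0.017 to 0.27 for Hpf1 and Apex1, -0.28 to 0.08 for Hpf1 and Lig3, and -0.018 to 0.19 for Hpf1 and Parg. With the maternal score it ranged from -0.35 to 0.08 for Lig3, -0.11 to 0.29 for Ogg1 and -0.23 to 0.08 for Parg, and with the zygotic score from -0.26 to 0.19 for Hpf1, -0.093 to 0.16 for Parg and -0.11 to 0.47 for Xrcc1. The cause was not tested. The ratio of the Hpf1 to the Apex1 level stayed between 3.34 and 3.82. Depth limits Xrcc1, Ogg1, Lig3, Parp2 and Polb most, with under 10 counts in at least 1 library each.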

Other observations

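Several genes outside the 10 members followed the same embryo scores. Of the 50 tested pathway genes, 29 had a positive and 21 a negative r with the maternal score (median 0.07, against -0.06 over all tested genes). Neil3, a glycosylase, was highest at 0.70 and Adprhl2, which removes ADP-ribose from serine and so undoes the mark that HPF1 directs, was lowest at -0.82, with r = -0.63 to Hpf1. With the zygotic score Rpa2 was highest at 0.85 and Rpa1 lowest at -0.74, although both encode subunits of replication protein A. These genes were chosen after their values were seen, and their r values over 31 embryos are descriptions with no test.

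Pole4, a small subunit of DNA polymerase epsilon in the long-patch list, had r = 0.78 with Hpf1, the 6th highest of all tested genes, and medians of 807 CPM in control embryos and 488 CPM in SER embryos. Its r with the maternal score was 0.38, lower than the 0.69 of Hpf1. It was also named after its values were seen.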
